A study of Mus musculus with 4 samples.

Results

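The replication histone genes are the genes whose mRNAs supply the histone proteins that package newly copied DNA. They were chosen here by symbol, as the protein-coding genes of GENCODE M21 named Hist1 to Hist4 for H1, H2A, H2B, H3 or H4 that held at least 20 counts summed over the libraries. The rule took 66 of the 54532 genes of the count table: 6 of class H1, 17 of H2A, 18 of H2B, 12 of H3 and 13 of H4. The count table holds 70 such symbols, of which 3 are pseudogenes and 1, Hist1h2aa, fell short with 8 counts. The nearest members inside the limit were Hist2h2aa1 with 66 counts and Hist2h2aa2 with 112 counts.

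RNA came from microdissected cranial neural tubes of mouse embryos at embryonic day 10.5, with 2 Control and 2 DCKO embryos, 1 library each. DCKO embryos were Lats1 flox/flox, Lats2 flox/flox and carried one copy of E2f1 Tg(Wnt1-cre)2Sor. Control embryos lacked that transgene, and their Lats1 and Lats2 alleles are not stated. Lats1 and Lats2 encode Hippo pathway kinases, and the series title asks how they act through YAP in the dorsal cranial neuroepithelium. Wnt1-driven Cre acts in dorsal cells of the neural tube and in neural crest, so the dissected tissue can hold both deleted and undeleted cells. In bulk RNA, fewer cells of a type and less RNA per cell cannot be told apart. Cre and genotype also cannot be told apart here. Xist, which is transcribed in female cells, had 10837 and 7786 counts in the Control libraries but 8 and 22 in the DCKO libraries, so that difference runs with the groups too.

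The libraries held between 41798361 and 55137810 counts. Levels below are CPM, the usual depth-scaled counts, on totals adjusted by TMM (the trimmed mean of M values), and fold changes are DCKO over Control. Calls use edgeR's quasi-likelihood test with Benjamini-Hochberg adjustment over 19207 genes and a threshold of 0.05. Lats1 stood at 44.2 and 65.5 CPM in Control and at 30.0 and 29.6 CPM in DCKO (log2 fold change -0.88, adjusted p = 0.0538). Lats2 stood at 26.7 and 13.3 CPM in Control and at 21.2 and 35.3 CPM in DCKO, so its groups overlapped. The count table has whole genes, and no deleted exon was measured apart.

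Histones H2A, H2B, H3 and H4 form the core around which DNA is wound, and H1 binds the linker between cores. Dividing cells make most histone mRNA in S phase from clustered genes without introns. These mRNAs usually end in a short stem-loop in place of a poly(A) tail. The stem-loop is bound by SLBP, the protein that carries histone mRNA through processing and translation.

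The stem-loops are shown because they are the sequence feature the members share. In the GENCODE M21 transcripts, 43 of the 66 members held the pattern GGNNCTNTTNAGNNCC between 22 and 59 bases after the stop codon. Among 58726 other protein-coding transcripts, 0.283% held it anywhere. Of the 23 members without a match, 15 have gene models with fewer than 40 bases after the stop codon. The 6 forms found are printed below 5′ to 3′ as DNA, with the paired stem in capitals and the loop in lower case.

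Found in 25 members of classes H1, H2A, H2B and H3: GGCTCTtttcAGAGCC

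Found in 7 members, all H4: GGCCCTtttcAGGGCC

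Found in 6 members of classes H1, H2B and H3: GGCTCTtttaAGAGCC

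Found in Hist1h4i and Hist2h4: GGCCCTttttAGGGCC

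Found in Hist1h4b and Hist1h4j: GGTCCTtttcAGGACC

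Found in Hist2h2ac: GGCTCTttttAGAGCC

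The forms that begin GGCC or GGTC were found in H4 genes, and the 11 H4 genes with a match held no other form. Hist1h2bh and Hist1h2bg carry the same 16 bases, and they had the largest fall and one of the smallest differences among H2B genes. A poly(A) signal, AATAAA, lay in the last 40 bases of 14 gene models. Of these 14, 3 were lower in DCKO and the median log2 fold change was -1.30. Among the 51 tested members counted as without it, 26 were lower and the median was -1.39. They include the 15 gene models with fewer than 40 bases after the stop codon, in which the signal could not be scored.

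Promoters are shown for 6 members at the ends of the response. RefSeq promoter windows on GRCm38.p6 matched 60 of the 66 members. Printed are the 120 bases before each RefSeq start, 5′ to 3′ on the gene's strand. Capitals mark 3 motifs on either strand. CCAAT is the core of the NF-Y site. The TATA box is searched as TATAAA. The octamer bound by Oct1 is searched as ATTTGCAT.

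Hist1h2bh, chr13:23543445-23543564, minus strand: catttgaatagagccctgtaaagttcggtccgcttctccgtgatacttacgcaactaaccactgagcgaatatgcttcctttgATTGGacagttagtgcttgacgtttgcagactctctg

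Hist1h3g, chr13:23535298-23535417, plus strand: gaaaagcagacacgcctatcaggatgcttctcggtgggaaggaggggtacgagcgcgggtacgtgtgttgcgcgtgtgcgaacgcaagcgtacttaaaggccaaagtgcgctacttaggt

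Hist1h4b, chr13:23756817-23756936, plus strand: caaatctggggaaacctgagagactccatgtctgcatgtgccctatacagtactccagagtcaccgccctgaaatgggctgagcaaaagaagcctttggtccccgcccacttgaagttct

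Hist1h1b, chr13:21780626-21780745, minus strand: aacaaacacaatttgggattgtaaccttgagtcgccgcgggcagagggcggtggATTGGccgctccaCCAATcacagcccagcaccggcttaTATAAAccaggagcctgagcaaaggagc

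Hist1h2bb, chr13:23746614-23746733, plus strand: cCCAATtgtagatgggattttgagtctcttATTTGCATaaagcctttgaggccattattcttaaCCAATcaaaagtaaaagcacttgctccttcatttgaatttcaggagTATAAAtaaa

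Hist1h2bg, chr13:23571280-23571399, plus strand: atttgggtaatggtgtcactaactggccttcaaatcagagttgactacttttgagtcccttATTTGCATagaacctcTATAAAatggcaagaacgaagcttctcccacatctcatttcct

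The first 4 of these genes were among the most reduced, and Hist1h2bb and Hist1h2bg were not called. In windows of the 250 bases before the start, CCAAT was present in 49 of 60 members, against 33.8% of 32851 RefSeq promoters. It was present in every H1, H2A and H2B window, in 8 of 10 H3 windows and in 3 of 12 H4 windows. TATAAA was present in 28 of 60 members, against 12.4% of all promoters. ATTTGCAT was present in 6 H2A and 6 H2B windows and in no H1, H3 or H4 window, against 1.60% of all promoters. Windows of H2A and H2B neighbours that point apart can overlap, as for Hist1h2ah and Hist1h2bk. Since either strand counts, a single site can then be scored for both genes. The median log2 fold change was -1.36 for tested members with ATTTGCAT and -1.42 for those without. It was -1.21 with TATAAA and -1.79 without, and -1.37 with CCAAT and -1.43 without. These groups differ in class make-up, and 9 of the 11 members without CCAAT were H4. Within H2A the median was -1.30 with ATTTGCAT and -2.10 without. Within H2B it was -1.54 with ATTTGCAT and -1.12 without. With TATAAA the median was -1.75 in H2A, -0.99 in H2B, -1.30 in H3, -1.20 in H4 and -1.49 in H1. Without TATAAA these medians were -1.95, -1.68, -1.86, -1.80 and -1.08, so only H1 went the other way. The motif groups were not tested against each other. A match is a description of letters, not a binding site.

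Histone mRNA was lower in both DCKO libraries for every class. Summed over all 66 members, levels were 34648 and 48796 CPM in Control and 15616 and 19591 CPM in DCKO, a 2.37-fold difference of the means. The members held 3.94% and 5.47% of all counts in Control, against 1.39% and 1.73% in DCKO. The groups did not overlap. Such sums do not depend on how reads were shared among near-identical copies within the set. The 2 Control libraries were not alike either: 58 of the 66 members were lower in Control 1 than in Control 2.

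Of the 65 members tested, 29 were lower in DCKO and 0 were higher. Over all genes, 8.11% were called lower and 8.93% higher. At an unadjusted p under 0.05, 53 members were lower and 0 higher, against 17.4% of all genes lower. Both DCKO libraries lay below both Control libraries for 60 of the 66 members, against 32.9% of all genes tested. Both lay above for 0, against 33.6% of all genes, and the other 6 members overlapped. The median log2 fold change was -1.35, beside 0.03 over all genes. Hist1h2ao was not tested, since it failed the filter on low counts with 11, 1379, 7 and 3 counts.

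The number called rested on the Control libraries, and calls over all genes tested also fell when either Control library was left out. Without Control 1, 13 of the 29 kept their call, and without Control 2, 5 did. Those 5 were Hist1h2af, Hist1h2an, Hist1h2bh, Hist1h2bj and Hist2h2bb. Without DCKO 1, 28 of the 29 kept it, and without DCKO 2 all 29 did. Under the same omissions the median over members ran from -1.70 to -1.17. In the authors' deposited table, which lists 61 of the members, 50 had a false discovery rate under 0.05 and were lower, 0 were higher, and 13.2% of its genes were lower.

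**Figure D1:**
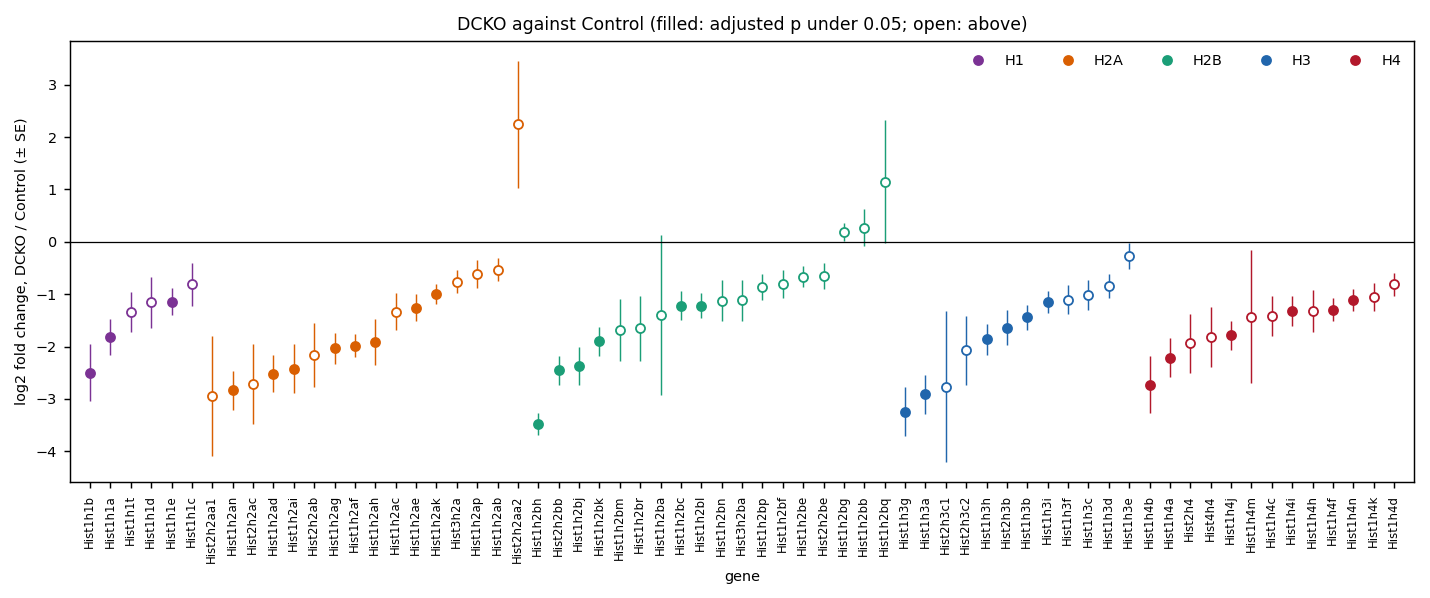
Log2 fold change (DCKO over Control, edgeR) of the 65 tested histone genes with its SE, by class and in order of size; filled points have an adjusted p under 0.05 and open points do not. All but 4 points lie below 0, and the 4 above it (Hist2h2aa2, Hist1h2bq, Hist1h2bb and Hist1h2bg) are open.

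H1, the linker histone, had 3 of 6 members called lower and the median log2 fold change was -1.25. Hist1h1b was at 1574 and 1897 CPM in Control and at 148 and 466 CPM in DCKO (log2 fold change -2.50, SE 0.54, adjusted p = 0.0358). Hist1h1a was at 1855 and 2900 CPM in Control and at 501 and 843 CPM in DCKO (-1.82, SE 0.34, adjusted p = 0.0270). Both fell in both DCKO embryos, with the lower value in DCKO 1. Hist1h1e was the third called (-1.14, adjusted p = 0.0380). Its gene model overlaps one end of the Hist1h2be model on the same strand, so reads of the overlap may be shared. Hist1h1d fitted at -1.15 and Hist1h1c at -0.81, with adjusted p of 0.155 and 0.211. Both differed widely within DCKO, with Hist1h1d at 476 CPM in DCKO 1 and 1341 CPM in DCKO 2 and Hist1h1c at 563 and 1297 CPM. Hist1h1t, the testis linker histone, was at 2.54 and 3.34 CPM in Control and 1.20 and 1.11 CPM in DCKO (-1.35, adjusted p = 0.0660). Without Control 1 or without Control 2, none of the 3 H1 calls held.

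H2A, which pairs with H2B in the core, had 8 of 16 tested members called lower and the lowest class median, -1.95. The largest called fall was that of Hist1h2an, at 101.4 and 209 CPM in Control and 20.4 and 23.1 CPM in DCKO (log2 fold change -2.83, SE 0.37, adjusted p = 0.0132). Hist1h2ad followed, at 494 and 414 CPM in Control and 53.7 and 105 CPM in DCKO (-2.52, adjusted p = 0.0149). Also lower were Hist1h2ai (-2.43), Hist1h2ag (-2.03), Hist1h2af (-1.98), Hist1h2ah (-1.91), Hist1h2ae (-1.26) and Hist1h2ak (-1.0). The smallest negative value was that of Hist1h2ab, at 314 and 455 CPM in Control and 269 and 261 CPM in DCKO (-0.54, adjusted p = 0.144). Each Hist1 H2A model overlaps another gene model on the opposite strand, and whether counting used strand is not stated. Hist1h2ac also overlaps Gm24991 on its own strand. Without Control 1, 4 of the 8 calls held, and without Control 2, 2 did.

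H2B, the partner of H2A, had the called gene with the largest fall and 3 of the 4 members with a log2 fold change above 0, the other being Hist2h2aa2 of H2A. Hist1h2bh (chromosome 13, 23541714 to 23543392, minus strand) was at 514 and 652 CPM in Control and at 48.6 and 55.8 CPM in DCKO. Its mean was 583 ± 97.5 CPM (SD, n = 2) in Control and 52.2 ± 5.12 CPM (SD, n = 2) in DCKO, 11.2-fold lower (log2 fold change -3.48, SE 0.21, adjusted p = 0.00571). Hist2h2bb was at 1018 and 1374 CPM in Control and at 175 and 261 CPM in DCKO (-2.46, SE 0.28, adjusted p = 0.00988). These had the lowest adjusted p of the class, and both calls held whichever library was left out. Also lower were Hist1h2bj (-2.38), Hist1h2bk (-1.90), Hist1h2bc (-1.22) and Hist1h2bl (-1.22), so that 6 of 18 were called. Without Control 1, 4 of the 6 calls held, and without Control 2, 3 did.

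Hist1h2bg was at 866 and 1009 CPM in Control and at 1133 and 996 CPM in DCKO (log2 fold change 0.18, SE 0.17, adjusted p = 0.496). Hist1h2bb was at 771 and 941 CPM in Control and at 1395 and 672 CPM in DCKO (0.27, SE 0.36, adjusted p = 0.624). Both overlapped between groups, and the sign of each turns negative on library totals and on deposited TPM. Chosen after their values were seen, these genes made up 23.2% and 19.4% of summed H2B CPM in Control and 49.8% and 43.1% in DCKO. The other 16 H2B genes summed to 5427 and 8096 CPM in Control and 2547 and 2206 CPM in DCKO, 2.84-fold lower.

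**Figure D2:**
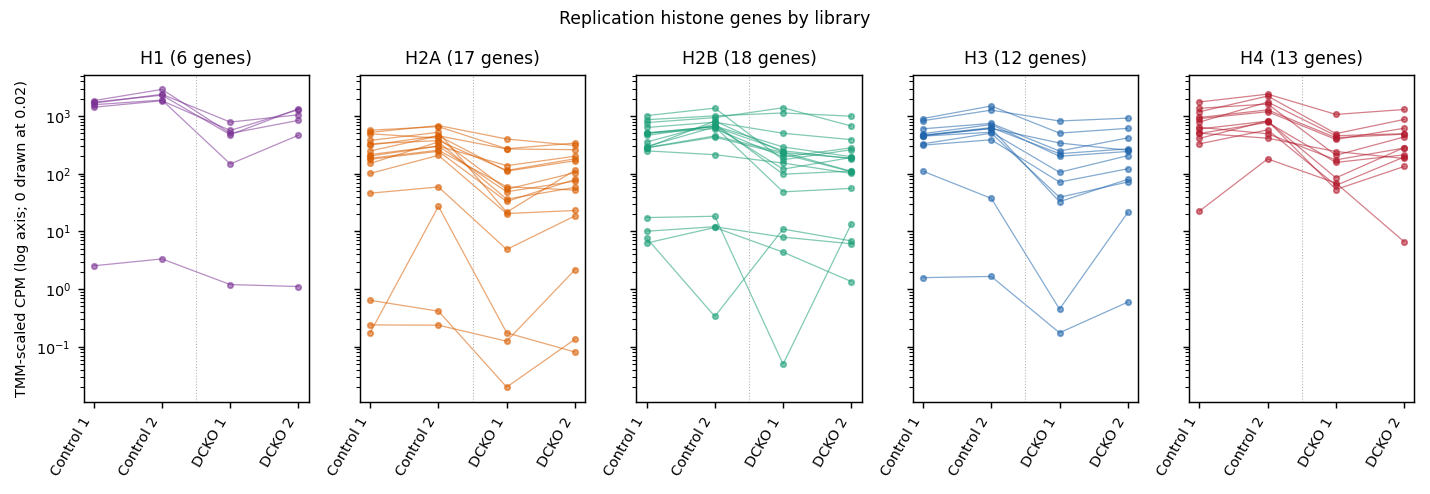
CPM of every histone gene (log axis, 0 drawn at 0.02) in the 4 libraries, with 1 panel per class and 1 line per gene; the dotted line divides Control from DCKO. Most lines step down from Control to DCKO, while lines at the bottom of the H2A, H2B, H3 and H4 panels swing within a group.

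H3, a core histone whose tail carries many of the known chromatin marks, had 6 of 12 members called lower and a median of -1.54. Hist1h3g was at 458 and 609 CPM in Control and 32.8 and 80.0 CPM in DCKO (log2 fold change -3.24, SE 0.46, adjusted p = 0.0156). Hist1h3a was at 331 and 506 CPM in Control and 39.1 and 72.0 CPM in DCKO (-2.91, SE 0.38, adjusted p = 0.0126). Also lower were Hist1h3h (-1.86), Hist2h3b (-1.64), Hist1h3b (-1.44) and Hist1h3i (-1.15). Hist1h3e had the smallest difference, at 831 and 1268 CPM in Control and 822 and 922 CPM in DCKO, with overlapping groups (-0.27, adjusted p = 0.471). Without Control 1, 3 of the 6 calls held, and without Control 2, 0 did.

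H3 levels were also read by the protein each gene encodes. Translated from the annotated coding sequence of a single transcript per gene, the 12 genes gave 3 proteins. The third came from Hist2h3c1 alone, whose chosen transcript has 546 coding bases, against 411 in the other H3 genes. It may therefore reflect the choice of transcript. Hist1h3a, Hist1h3g, Hist1h3h and Hist1h3i encode the form known as H3.1, and all 4 were lower. Their summed level was 1570 and 2134 CPM in Control and 367 and 544 CPM in DCKO, 4.06-fold lower (log2 fold change -2.02, SE 0.27, adjusted p = 0.0133 on summed counts). A group of 7, Hist1h3b to Hist1h3f with Hist2h3b and Hist2h3c2, encode the form known as H3.2, and 2 were lower. Their summed level was 3746 and 5365 CPM in Control and 2225 and 2658 CPM in DCKO, 1.87-fold lower (-0.90, SE 0.23, adjusted p = 0.0536). Of the reads of both groups, the first held 29.5% and 28.5% in Control against 14.1% and 17% in DCKO, and these did not overlap. Single genes of the groups did overlap, since Hist1h3i of the first stood at -1.15 and Hist1h3b and Hist2h3c2 of the second at -1.44 and -2.07. The difference between the groups was noticed in these data and was not tested.

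H4, the most conserved core histone, had 6 of 13 members called lower and a median of -1.42. Hist1h4b was at 410 and 830 CPM in Control and 53.3 and 134 CPM in DCKO (log2 fold change -2.73, SE 0.55, adjusted p = 0.0304). Hist1h4a was at 1364 and 1618 CPM in Control and 209 and 434 CPM in DCKO (-2.21, SE 0.37, adjusted p = 0.0207). Also lower were Hist1h4j (-1.79), Hist1h4i (-1.32), Hist1h4f (-1.29) and Hist1h4n (-1.10). Hist1h4d had the smallest value of the class, at 1758 and 2400 CPM in Control and 1069 and 1301 CPM in DCKO (-0.81, adjusted p = 0.0616). Without Control 1, 2 of the 6 calls held, and without Control 2, 0 did.

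Many members encode the same protein, so levels were also summed per protein. With a single transcript taken per gene, the 66 genes gave 30 distinct proteins: 6 for H1, 8 for H2A, 12 for H2B, 3 for H3 and 1 for H4. The number depends on the transcripts taken. Those of Hist1h2bp, Hist1h2bq and Hist1h2br have 417, 405 and 405 coding bases, against 381 in most H2B genes. All 13 H4 genes encode the same protein, and their summed counts were lower in DCKO (log2 fold change -1.38, SE 0.28, adjusted p = 0.0305). The 9 H2A genes of the largest H2A group, from Hist1h2ab to Hist1h2ap, summed to 2059 and 2896 CPM in Control and 792 and 1072 CPM in DCKO (-1.41, SE 0.25, adjusted p = 0.0235). A group of 4 H2B genes, Hist1h2bf, Hist1h2bj, Hist1h2bl and Hist1h2bn, was lower as well (-1.33, adjusted p = 0.0316). The group of Hist1h2bc, Hist1h2be and Hist1h2bg was not called (-0.34, adjusted p = 0.278). In all, 13 of the 30 proteins were lower and 0 higher by edgeR. Summing by protein was chosen after the data were seen.

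**Figure D3:**
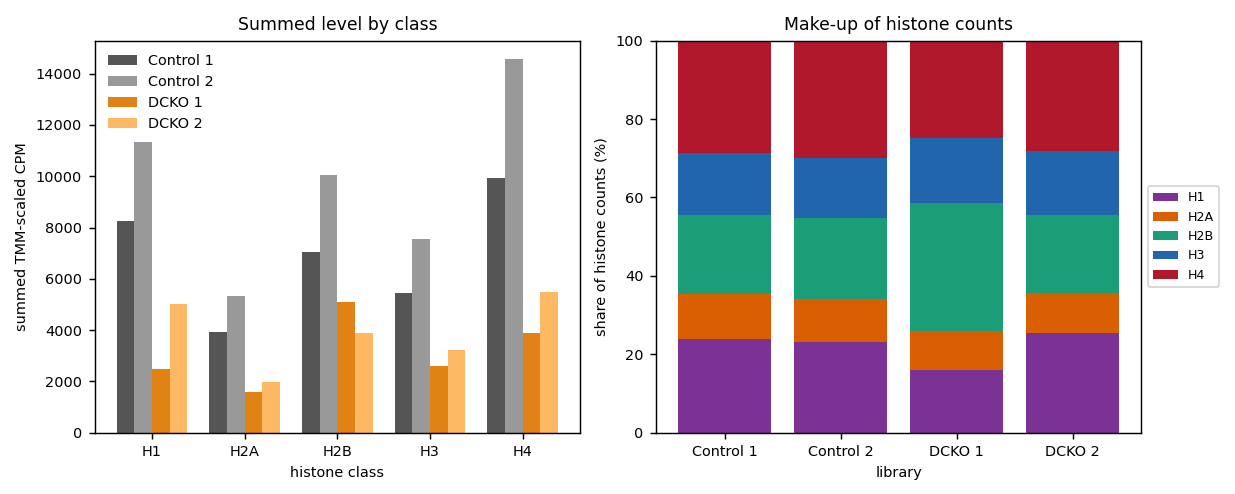
Left, summed CPM of each histone class in the 4 libraries; right, the share of each class in the histone counts of each library (%). Every class is lower in both DCKO libraries, and the H2B share of 32.5% in DCKO 1 stands above the 19.8% to 20.6% of the other 3 libraries.

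Class sums were lower in DCKO by broadly similar factors, with H2B the least. H1 was 2.62-fold lower, H2A 2.59-fold, H2B 1.91-fold, H3 2.23-fold and H4 2.61-fold. Within DCKO the order of classes was not shared. H1 was 3.96-fold lower in DCKO 1 and 1.96-fold lower in DCKO 2, while H2B was 1.69-fold and 2.21-fold lower. H1 made up 23.9% and 23.2% of histone counts in Control, 15.9% in DCKO 1 and 25.5% in DCKO 2. H2B made up 20.4% and 20.6% in Control, 32.5% in DCKO 1 and 19.8% in DCKO 2. Both shifts in share therefore rested on DCKO 1: without it the change was 1.97 percentage points for H1 and -0.71 for H2B, against -2.86 and 5.65 with both. Shares of H2A, H3 and H4 lay between 10.1% and 11.4%, 15.4% and 16.6%, and 24.9% and 29.8%.

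The members lie in 4 clusters. Hist1 (chromosome 13, 21715763 to 23934156) holds 53 of them, and 27 of its 52 tested genes were lower and the median log2 fold change was -1.32. Hist2 (chromosome 3, 96219865 to 96270132) holds 10, of which 2, Hist2h2bb and Hist2h3b, were lower, with a median of -2.12. Without DCKO 1 that median was -1.48, and without DCKO 2 it was -3.13. Summed Hist2 levels were 2612 and 3353 CPM in Control and 401 and 916 CPM in DCKO, 7.44-fold lower in DCKO 1 and 3.26-fold lower in DCKO 2. Hist1 levels were 2.57-fold and 2.07-fold lower in the same libraries. The fold was thus larger for Hist2, as was its spread, and the difference between clusters was not tested.

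Within Hist2, Hist2h2ac was at 379 and 524 CPM in Control and 21.5 and 115 CPM in DCKO (log2 fold change -2.72, adjusted p = 0.0638). Hist2h2ab (-2.17), Hist2h4 (-1.94), Hist2h3c2 (-2.07) and Hist2h2be (-0.65) also lay below Control in both DCKO libraries without a call. Hist2h3c1 was at 111 and 37.4 CPM in Control and 0.450 and 21.3 CPM in DCKO (-2.77, adjusted p = 0.228). Hist2h2aa1 had 40 and 21 counts in the Control libraries and 0 and 5 in the DCKO libraries, and Hist2h2aa2 had 15, 12, 5 and 80 counts. These near-identical H2A copies are too low and too alike for their values to be read apart.

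Hist3 on chromosome 11 has Hist3h2a (-0.77, adjusted p = 0.0677) and Hist3h2ba (-1.12, adjusted p = 0.103), both below Control in both DCKO libraries. Hist4h4, alone on chromosome 6, was at 330 and 577 CPM in Control and 62.9 and 195 CPM in DCKO (-1.81, adjusted p = 0.0835). Along Hist1, members lie in 4 stretches more than 100000 bases apart. All 5 genes of the second stretch (22035164 to 22043676) were lower, with a median of -1.91. In the first, 9 of 17 tested were lower (median -1.22), and in the third 13 of 29 (median -1.26). At the end of the third stretch Hist1h3b, Hist1h4b, Hist1h4a, Hist1h3a and Hist1h1a stand in a row and were all lower. Earlier in the same stretch, Hist1h3e, Hist1h2bg and Hist1h2be were among the members with the smallest differences. So were Hist1h2bb (0.27) and Hist1h2ab (-0.54), which stand directly before that row.

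Neighbours that start from a shared region did not always move alike. Members whose starts lie within 1000 bases and point apart made 12 pairs, 11 of them an H2A gene with an H2B gene, 176 to 302 bases between starts. In the 10 such pairs with both genes tested, the H2A gene had the lower log2 fold change in 7. The medians were -1.97 for H2A and -1.17 for H2B. Hist1h2ae was lower (-1.26, adjusted p = 0.0313) while Hist1h2bg, 176 bases away, stood at 0.18. Hist2h2ac was at -2.72 beside Hist2h2be at -0.65, Hist1h2an at -2.83 beside Hist1h2bp at -0.86, and Hist1h2ad at -2.52 beside Hist1h2bf at -0.81. By contrast Hist1h2ah and Hist1h2bk were both at -1.90 to -1.91. The largest gap the other way was Hist1h2ap at -0.61 beside Hist1h2br at -1.65. The differences within pairs were not tested.

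**Figure D4:**
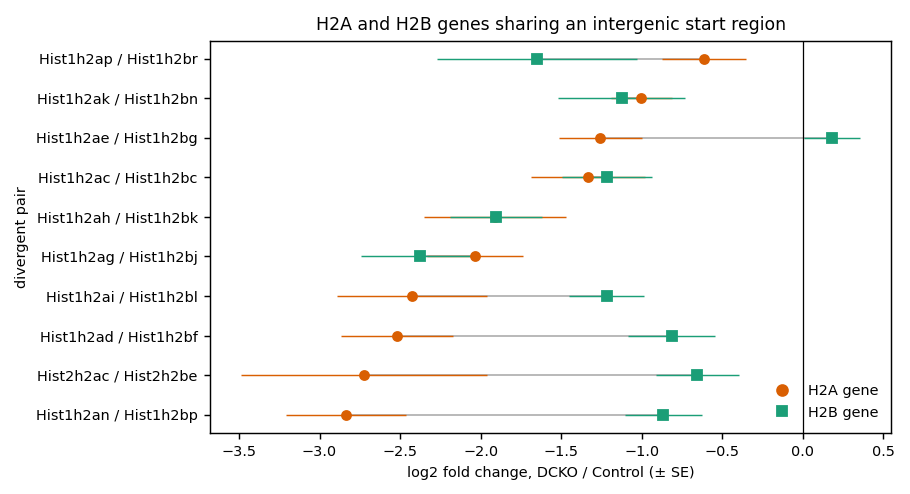
Log2 fold change (DCKO over Control) with its SE for the H2A gene (circle) and the H2B gene (square) of 10 divergent pairs, ordered by the H2A value. The pairs range from nearly equal (Hist1h2ah with Hist1h2bk) to 2.07 apart (Hist2h2ac with Hist2h2be).

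Levels between genes are compared on deposited TPM, which divides by transcript length. Hist1h1a led H1 in all 4 libraries, with a mean of 5343 TPM in Control and 1331 TPM in DCKO, and Hist1h2ak led H2A in all 4, with 2636 and 1129 TPM. The other classes had other leaders in the groups. In H2B, Hist2h2bb led in Control with 5001 and 5530 TPM and was at 605 and 1065 TPM in DCKO. Hist1h2bb was at 2840 and 2839 TPM in Control and 3617 and 2060 TPM in DCKO, and Hist1h2bg held 2414 to 2624 TPM in all 4 libraries. In H3, Hist1h3i led in Control with 2130 and 2352 TPM, close to Hist1h3e at 1862 and 2326 TPM. In DCKO Hist1h3e led with 1295 and 1716 TPM, and Hist1h3i was at 715 and 1024 TPM. Hist1h3c came next by the mean of each group, at 1803 and 776 TPM. In H4, Hist1h4h and Hist1h4k changed places within Control, at 4728 and 7253 TPM against 5434 and 5852 TPM. In DCKO Hist1h4k led with 1661 and 3069 TPM, against 1392 and 2898 TPM for Hist1h4h. Below the leader of H1, Hist1h1b was second in Control (mean 3940 TPM) and below Hist1h1c in DCKO (619 against 885 TPM). In H2A, Hist2h2ac was second by the Control mean (1454 TPM) and Hist1h2ab by the DCKO mean (805 TPM). These orders were not tested. Hist1h1d has a gene model of 7425 bases, which lowers its TPM relative to the others. Leaders in other classes have short models with 0 bases after the stop codon. These are Hist1h2ak (393 bases), Hist2h2bb (381), Hist1h3i (411) and Hist1h4k (312). By Control counts Hist1h4d, with a model of 1138 bases, stood above Hist1h4k (110155 and 121550 against 56745 and 60317). Hist2h2bb led H2B by Control counts too (63773 and 69600). The orders thus depend on model length as well as on counts.

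Shared sequence limits how well single copies can be told apart. The median member shared 48.2% of its 50-base stretches with protein-coding transcripts of other Hist1 to Hist4 genes. Class medians ran from 1.10% for H1 to 78.9% for H2A. Pseudogenes and genes outside this family were not compared. Among members sharing under 50%, 12 of 36 tested were lower and the median log2 fold change was -1.32. Among those sharing more, 17 of 29 were lower, with a median of -1.64. Among the 27 that shared under 50% and overlapped no other gene, 9 were lower and the median was -1.31. In 8 members the counts of the 2 libraries of a group differed at least 4-fold, and these shared a median of 89.5% against 46.4% for the other 58. Hist1h2ba had 2 and 502 counts in the DCKO libraries, Hist1h2bq 480 and 17 in Control, and Hist1h4m 1413 and 9169 in Control. Single values of such genes are uncertain.

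Histone variants outside the Hist1 to Hist4 symbols gave 4 lower and 1 higher of 11 tested, with a median log2 fold change of -0.37. H2afx, the variant phosphorylated at DNA breaks, was at 591 and 670 CPM in Control and 234 and 248 CPM in DCKO (-1.39, adjusted p = 0.0106). H2afv (-1.06), H2afz (-0.91) and H1fx (-0.78) were lower as well. H3f3b, which encodes the replacement histone H3.3, was at 316 and 307 CPM in Control and 587 and 465 CPM in DCKO (0.76, adjusted p = 0.0442). H3f3a, the other H3.3 gene, was not called (-0.37, adjusted p = 0.235). Without Control 1 or Control 2, 0 of these 5 calls held.

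Genes that transcribe or process histone mRNA gave 5 lower and 0 higher of 21 tested, median -0.25. Slbp, the stem-loop binding protein, was at 76.6 and 96.4 CPM in Control and 39.5 and 40.7 CPM in DCKO (-1.11, adjusted p = 0.0195). Casp8ap2, a component of histone locus bodies, was lower (-1.39, adjusted p = 0.0279), and so were Cpsf2 (-1.01), Snrpb (-0.95) and Gon4l (-0.75). Npat, the coactivator of histone gene transcription, was not called (-0.91, adjusted p = 0.0599). Lsm10 and Lsm11 of the U7 particle stood at -0.03 and -0.09. Histone chaperones and importers gave 7 lower and 1 higher of 26, median -0.51, with Asf1b (-1.27), Atrx (-1.25), Hira (-1.21) and Chaf1a (-1.12) lowest. Npm1 was higher (0.73, adjusted p = 0.0486). None of the calls in either list held without Control 1 or without Control 2.

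S phase and replication genes gave 18 lower and 0 higher of 49, with a median of -0.43, so smaller differences than the histone genes. E2f2, an S phase transcription factor, was at 30.8 and 31.5 CPM in Control and 3.85 and 2.38 CPM in DCKO (-3.32, adjusted p = 0.00761). Ung (-2.0), Ccne1 (-1.99) and Tk1 (-1.51) were lower too. Mcm2, Mcm3, Mcm4, Mcm5, Mcm6 and Mcm7, the subunits of the replicative helicase, were between -0.29 and -0.12 and none was called. Pcna, the sliding clamp, was at -0.43 (adjusted p = 0.101). The labels write the Cre transgene as an allele of E2f1. E2f1 itself was at 46.5 and 50.1 CPM in Control and 33.0 and 18.5 CPM in DCKO (-0.91, adjusted p = 0.0891), and transgene and deletion cannot be told apart. Without Control 1, 1 of the 18 calls held, and the same number without Control 2.

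**Figure D5:**
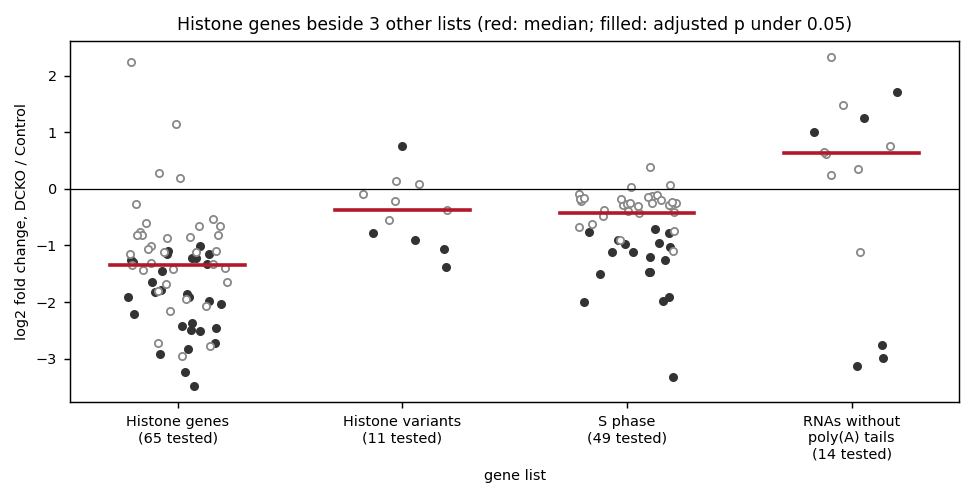
Log2 fold change (DCKO over Control) of each tested gene of 4 lists, with the list's median as a red bar; filled points have an adjusted p under 0.05. The histone genes center at -1.35, histone variants at -0.37, S phase genes at -0.43 and other RNAs without poly(A) tails at 0.64.

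The labels describe polyadenylated RNA, and most replication histone mRNAs lack a poly(A) tail, so other tailless RNAs were read beside them. These gave 3 lower and 3 higher of 14 tested, with a median of 0.64. Summed, they stood at 13846 and 26585 CPM in Control and 35514 and 30054 CPM in DCKO, the opposite direction to the histones. Scarna13 (1.71), Scarna2 (1.25) and Terc (1.0) were higher, and Rny1 (-3.14), Snord118 (-2.99) and Rny3 (-2.75), each under 4 CPM, were lower. Without Control 1, 0 of these 6 calls held, and without Control 2, 1 did. Rn7sk, the most abundant, was at 6533 and 14206 CPM in Control and 18399 and 14261 CPM in DCKO. Genes of the ribosomal RNA cluster held 13.2% and 12.4% of counts in Control and 24.7% and 30.3% in DCKO. Both were thus higher in DCKO where the histone sum was lower, while Control 2 exceeded Control 1 in histones and in tailless RNA alike. The part of RNA selection in the result was not tested.

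Cell type markers moved with the groups. Neural progenitor markers were lower for 9 of 11 genes (summed 1874 and 2109 CPM in Control, 553 and 430 CPM in DCKO), and neuronal markers for 4 of 8 (825 and 1059 against 491 and 216 CPM). Nes (988 and 1142 against 307 and 252 CPM) and Sox2 (141 and 144 against 74.8 and 78.9 CPM) were present in all libraries. Erythroid markers were lower for 7 of 8 (2570 and 3814 against 898 and 663 CPM). Surface ectoderm markers were higher for 7 of 8 (15.7 and 28.4 against 267 and 275 CPM), and Trp63 was at 2 counts in each Control library. Cranial mesenchyme markers were higher for 5 of 6 (182 and 208 against 1226 and 592 CPM). Endothelial markers were higher for 4 of 6 (138 and 129 against 606 and 350 CPM) and pericyte markers for 4 of 5 (48.3 and 44.6 against 414 and 651 CPM). Macrophage markers gave 0 of 5 in either direction (20 and 22 against 47.6 and 16.6 CPM). At an unadjusted p under 0.05 that list also gave 0. Without Control 1 or without Control 2, 4 of the 9 neural progenitor calls held, 2 of the 4 neuronal calls and 0 of the mesenchyme and endothelial calls. The 7 surface ectoderm calls became 5 and 4, the 4 pericyte calls 3 and 1, and the 7 erythroid calls 5 and 2. The part of these cell types in the histone result was not tested.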

How the data were processed

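The authors deposited whole-number read counts per gene, TPM per gene, and their own comparison of the groups as log fold changes, read here as log2, with p-values and false discovery rates. Per the submitters' processing notes, edgeR 3.16.5, limma 3.30.13, R 3.3.2, StringTie and TopHat2 2.1.1 and the builds mm10 and GRCm38 were used, in roles that are not given. How the counts were made and whether strand was used are not given in the sources used here. The columns headed Mut were taken as DCKO, and the log base of the deposited fold changes is not named. In the authors' deposited table Hist1h2bh has a value of -3.43, near the log2 value computed here. Labels describe separate embryos, 2 per group.

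Counts were tested in edgeR 4.0.16 (R 4.3.3). Genes were kept by filterByExpr (minimum count 10, minimum total 15), scaled by TMM and fitted with a quasi-likelihood model of group alone (2 residual degrees of freedom). All tests were two-sided. SE is the absolute log2 fold change over the square root of F. CPM are counts over TMM-scaled totals. A floor of 3 counts equals 0.0479 to 0.0811 CPM and covers counting error only. Symbols and coordinates are from GENCODE M21 on GRCm38, which matched 54409 of 54532 IDs, and promoters are from RefSeq on GRCm38.p6. Proteins were translated from GENCODE M21 coding sequences, taking for each gene the transcript with the longest sequence after the stop codon. A stretch counted as shared if a protein-coding transcript of another Hist1 to Hist4 gene held the same 50 bases.

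The members and all gene lists were chosen with earlier results of these data known. Named are all called members, in each class the 3 with the highest mean TPM and those with the largest and smallest fold change, all members of Hist2 to Hist4, and up to 4 called genes of each list by p-value. Members outside it were named where a comparison turns on them, after their values were seen. Alternatives covered scaling, filter, tool (DESeq2 1.42.0, limma 3.58.1), TPM in place of counts, pooling of identical proteins and each library left out.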

Additional observations from a re-analysis of the deposited data

Results flagged for a closer look

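Hist1h2al, a processed pseudogene of the H2A family on chromosome 13 that is not among the members, had 1055 counts in DCKO 1 and 54, 47 and 13 counts in Control 1, Control 2 and DCKO 2. Its level was 26.4 CPM in DCKO 1, against 0.862 and 0.928 CPM in Control and 0.352 CPM in DCKO 2. It was singled out because a gene outside the histone comparison stood above its Control level in 1 library. It was not called by edgeR (log2 fold change 3.90, adjusted p = 0.156).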

How the results depend on the processing

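No alternative called more than 1 member higher, and the median over members was negative in every setting run. Members called lower numbered 29 in the edgeR fit, 30 with DESeq2 size factors, 29 with upper quartiles, 39 without a filter, 36 with limma-voom and 29 with the histones left out of the scaling, which was chosen after the data were seen. A minimum total of 100 or of 1 gave 29, and leaving out the ribosomal RNA cluster gave 30. DESeq2 called 52: 5 H1, 12 H2A, 13 H2B, 10 H3 and 12 H4. By cluster these were 43 in Hist1, 6 in Hist2, 2 in Hist3 and 1 in Hist4. Among all 19207 genes, DESeq2 called 2594 lower and limma-voom 1730, against 1558 in the edgeR fit. With the filter left off, 1522 of 30682 genes were lower. Scaling by library totals shifts the median of all genes to -0.32. On that scale 52 were lower: 4 H1, 14 H2A, 12 H2B, 10 H3 and 12 H4, or 42 in Hist1, 7 in Hist2, 2 in Hist3 and 1 in Hist4. Medians there were -1.69 over members, -1.52 for H2B, -1.76 for H4 and -1.67 for Hist1, and 67 genes of the supporting lists were called, against 41. Over all genes, 3744 were then lower and 1219 higher, against 1558 and 1716. Without a filter, 10 H4 and 5 Hist2 members were lower, and with limma-voom 5 of Hist2.

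On log2(TPM + 1) with a mean TPM of at least 1, limma called 54 members lower: 5 H1, 13 H2A, 13 H2B, 11 H3 and 12 H4, or 44 in Hist1, 7 in Hist2, 2 in Hist3 and 1 in Hist4. On log2(TPM + 0.1) it called 53: 5, 13, 13, 10 and 12 by class, or 44, 6, 2 and 1 by cluster. The H2B median there was -1.44. Of all 14784 genes tested, limma called 1700 lower with a pseudocount of 1 and 1602 with 0.1. Without a filter on TPM it called 0 genes of any kind, hence 0 members in each class and cluster and 0 in the lists, with 55 members lower at an unadjusted p under 0.05. Hist1h2bb turned to -0.074 and Hist1h2bg to -0.165 on library totals, and to -0.057 and -0.0587 on the TPM settings with a pseudocount of 1 (-0.0588 for Hist1h2bg with 0.1). Summing identical proteins, also chosen after the data were seen, called 13 of 30. Summing by a RefSeq protein table was not run.

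Same-numbered libraries did not deviate together (r = -0.04 over 19207 genes). With a replicate block, 36 members were lower, 27 of the 29 among them, with 5 in Hist2 and 1 in Hist4. The block called 24 genes of the supporting lists, and 776 lower and 1002 higher of all genes.

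Leaving out 1 library at a time gave 5 to 46 members lower and 0 to 1 higher (Hist1h2bq, Hist2h2aa2 and Hist1h2bb, once each). Ranges by class were 0 to 5 for H1, 2 to 13 for H2A, 3 to 11 for H2B, 0 to 10 for H3 and 0 to 11 for H4. By cluster they were 4 to 37 for Hist1, 1 to 8 for Hist2, 0 to 2 for Hist3 and 0 to 1 for Hist4. Medians ran from -1.70 to -1.17 over members, -1.81 to -1.07 for H1, -2.37 to -1.51 for H2A, -1.42 to -0.88 for H2B, -1.90 to -1.28 for H3, -1.89 to -1.27 for H4 and -3.13 (without DCKO 2) to -1.48 (without DCKO 1) for Hist2. The supporting lists gave 1 to 46 calls. Hist1h2bb ran from -0.35 to 0.70, Hist1h3e from -0.55 to 0.0368, Hist1h4m from -3.94 to 0.715 and Hist2h2aa2 from -0.92 to 3.163. The share change ran from -7.69 to 1.97 points for H1 and from -0.71 to 12.0 for H2B. In these fits the lone library is assumed to vary like the other group, and the cause of the differences was not tested.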

Other observations

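Of the other histone pseudogenes, Hist3h2bb-ps was at 103 and 158 CPM in Control against 52.8 and 36.2 CPM in DCKO. It was lower by edgeR's quasi-likelihood test (log2 fold change -1.55, adjusted p = 0.0269). Hist1h2aj was at 2.22 and 0.316 CPM in Control and 0.375 and 0.352 CPM in DCKO, with no call (adjusted p = 0.231). Hist1h2aa, which fell short of the count minimum, had 2, 4, 0 and 2 counts in Control 1, Control 2, DCKO 1 and DCKO 2.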
